A study of Mus musculus with 2 samples.

Results

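The genes described here are 5 interferon regulatory factors (Irf1, Irf2, Irf3, Irf7 and Irf9) and 4 interferon receptor subunits (Ifnar1, Ifnar2, Ifngr1 and Ifngr2) in mouse uterine epithelium. They were found by the gene symbol that the platform annotation gives each probe set, and all 9 were on the array, out of 12393 genes in all. Together they had 14 probe sets, and each gene was represented by its brightest one. Total RNA from uterine epithelial cells, collected in the morning of day 4 of pregnancy, was read on the Mouse Genome 430A 2.0 array of Affymetrix, whose short probes each match part of a transcript. The Stat3 knockout group and the control group had 1 array each, and both samples carry a title that names Stat3 flox controls, while their genotype labels read Stat3 knockout and control. Each array read pooled RNA (the design text gives n = 3 for each and does not define it further). The sources used here do not give the driver of the deletion, the strain or the age of the mice. Epithelium was freed by trypsin digestion and squeezing of the opened uterus.

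Interferons are secreted proteins that signal through paired receptor chains. Type I interferons bind a receptor made of IFNAR1 and IFNAR2, and interferon gamma binds one made of IFNGR1 and IFNGR2; JAK family kinases on these chains phosphorylate STAT proteins. The type I receptor leads to ISGF3, a complex that holds STAT2 and IRF9, and signalling from the gamma receptor switches on Irf1, among other genes. IRF3 and IRF7 are activated by sensors of foreign nucleic acid and switch on interferon genes, IRF1 activates genes of antigen presentation, and IRF2 binds the same sites and can oppose it. Since Stat3, the transcription factor deleted here, is activated by related receptors, the comparison asks how the parts of the interferon pathway differed between the knockout and the control epithelium.

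Of the 9 genes, 3 (Irf7, Ifngr2 and Irf1) were higher in the knockout by 2-fold or more, and 0 were lower by as much. Over all 8304 measured genes, 7.37% were higher by this limit and 9.92% lower. The 9 genes were chosen with earlier results of these data known, so these shares only describe and are no test. Irf9 was close to the limit, and Irf2, Irf3, Ifnar1, Ifnar2 and Ifngr1 differed by less than 1.5-fold between the 2 arrays. At a limit of 1.5-fold, 4 of the 9 genes were higher, with Irf9 added, against 19.4% of measured genes, and at 3-fold 1 was, Irf7, against 1.72%. The log2 ratio (knockout over control) lay above 0 in 7 of the 9 genes, against 53.4% of all measured genes, and its median was 0.32 over the 9 genes, against 0.05 over all measured genes. With 1 array per group no difference has a replicate check and no p-value can be given, so all differences are described by size. The number of arrays limits the precision, and more RNA per cell and more cells that hold the RNA cannot be told apart in such pools.

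The arrays had been scaled to a common level, with a mean signal of 150.0 on each after 2% of probe sets were left out at each end. Stat3 itself had a signal of 186 in the knockout and 582 in the control, or 3.12-fold lower, and its second measured probe set read 160.0 in the knockout and 430.0 in the control (log2 ratio -1.43). The third Stat3 probe set was under the floor on both arrays, the signal of 14.0 to which lower values were set. The knockout signals of 186 and 160.0 lie over this floor, so some Stat3 signal remained on that array. Where the Stat3 probe sets lie relative to the deleted exons was not examined. The 7 epithelial markers Cdh1, Epcam, Krt8, Krt18, Krt19, Cldn3 and Cldn7 were all over the floor and within 2-fold, with a summed signal of 25146 in the knockout and 22427 in the control, so the labelled cell type had its defining markers on both arrays.

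Markers of other cells were measured in the same RNA. Of 12 T, B and NK cell marker genes with a probe set, 11 were under the floor on both arrays, Cd3e, Cd3g, Cd3d, Cd79a and Ncr1 among them, and Ptprc had 38.2 in the knockout and 34.4 in the control. Of 11 macrophage and granulocyte markers with a probe set, 7 were measured and 1, C1qa, was at least 2-fold higher (67.4 in the knockout, 33.2 in the control); Lyz2 had 296 in the knockout and 154 in the control, and Csf1r had 144 in the knockout and 85.8 in the control. Cd68 had the opposite sign, with 44.4 in the knockout and 81.1 in the control (log2 ratio -0.87), and C1qb was close on both arrays, with 65.8 in the knockout and 56.8 in the control, while S100a8, S100a9, Itgam and Cd163 were under the floor on both arrays. Over the 7 measured markers the median ratio was 0.69 on the log2 scale, with 6 above 0 and 1 below, and over the 11 with a probe set the summed signal was 693 in the knockout and 466 in the control. Stromal markers had a median of 0.42 over 8 measured genes and a summed signal of 3568 in the knockout and 2582 in the control, with 0 past 2-fold and 1, Pdgfra, below 0 (log2 ratio -0.69). The brightest were Dcn, with 1753 in the knockout and 1235 in the control, and Col3a1, with 721 in the knockout and 570 in the control. On both arrays these signals were above those of all 9 genes. A dimmer Col3a1 probe set had 32.2 in the knockout and 35.6 in the control. Of 8 muscle and vessel markers, 3 were measured, Acta2, Tagln and Cdh5, and all 3 were below 0 and within 2-fold (median -0.31), with a summed signal over the 8 of 139 in the knockout and 171 in the control. Pdgfra, Cd68 and C1qb were chosen for mention after their values were seen. The part of these cells in the ratios of Irf7, Irf1, Irf9 and Ifngr2 was not tested.

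**Figure D1:**
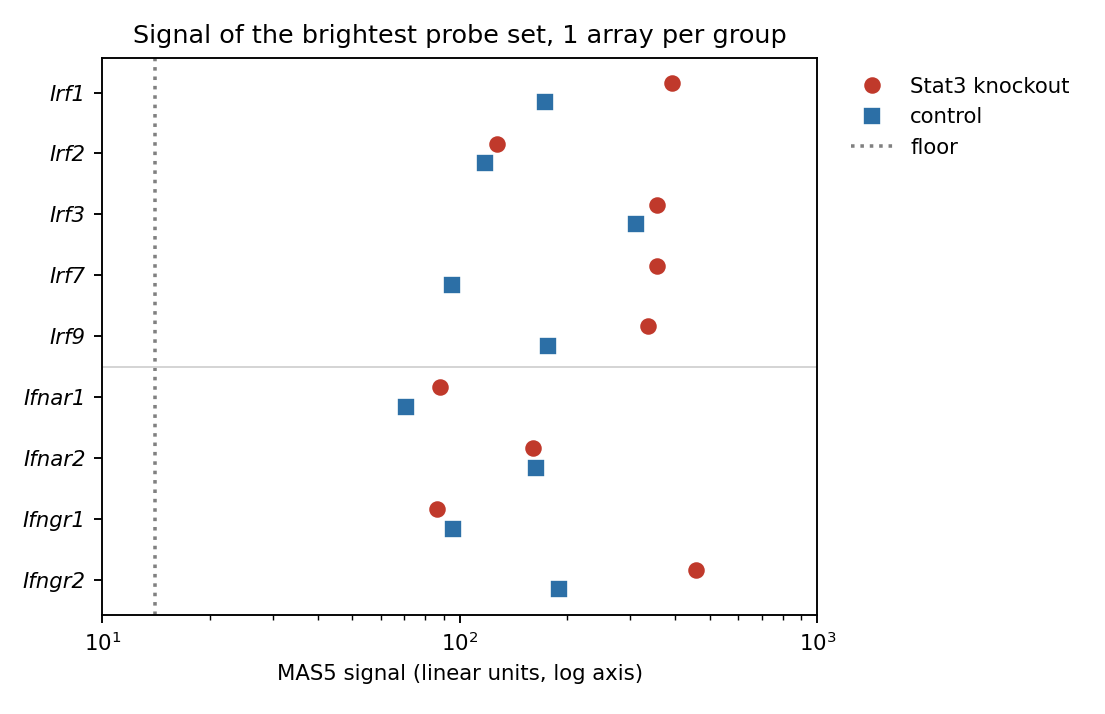
MAS5 signal of the brightest probe set of each of the 9 genes (horizontal log axis, linear units), with the Stat3 knockout array as circles and the control array as squares, 1 array each; the dotted line is the floor of 14.0. The circle lies clearly to the right of the square for Irf7, Ifngr2, Irf1 and Irf9, and close to it for the other 5 genes.

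Among the transcription factors, Irf7 differed most. Irf7 (gene ID 54123) encodes the factor that drives most type I interferon genes and is itself induced by interferon. Its signal was 356 in the knockout and 94.9 in the control, which was 3.75-fold higher (log2 ratio 1.91). Only 76 measured genes had a higher ratio, and 99.1% had a lower one. Irf7 was read by a single probe set, so this value has no second reading on the array.

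Irf1 (gene ID 16362), a gene induced in the interferon gamma response, gave 391 in the knockout and 173 in the control. It was 2.26-fold higher (log2 ratio 1.18), and 95.1% of measured genes had a lower ratio. Irf9 (gene ID 16391), the DNA-binding subunit of ISGF3, gave 335 in the knockout and 176 in the control, or 1.90-fold higher (log2 ratio 0.93). That ratio was above those of 91.3% of measured genes and just short of the 2-fold limit. Irf1 and Irf9 were also read by 1 probe set each.

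Irf2 and Irf3 differed little. Irf2 (gene ID 16363) gave a signal of 127 in the knockout and 118 in the control (log2 ratio 0.11). Irf3 (gene ID 54131), which is present before infection and is activated by phosphorylation rather than by induction, had 357 in the knockout and 312 in the control for its brightest probe set, 1426111_x_at (log2 ratio 0.20). Its other 3 probe sets were dimmer and had the same direction. Probe set 1416898_a_at had signals of 71.9 in the knockout and 63.4 in the control (log2 ratio 0.18). Probe set 1435271_at had 33.1 in the knockout and 25.3 in the control (log2 ratio 0.39), and 1438721_a_at had 32.3 in the knockout and 20.3 in the control (log2 ratio 0.67). All 4 Irf3 ratios therefore stayed within 2-fold, and the widest came from the probe set with the lowest control signal. The difference between the ratios of Irf7 and Irf3, both factors of the interferon genes, is given as sizes only and was not tested.

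Of the receptor subunits, 1 of 4 was past the limit, by which 7.37% of all measured genes were higher and 9.92% lower. For the interferon gamma receptor, Ifngr2 (gene ID 15980), the signalling chain, gave 458 in the knockout and 190 in the control. It was 2.41-fold higher (log2 ratio 1.27), above 96.2% of measured genes. A second, dimmer Ifngr2 probe set, 1423558_at, gave signals of 68.4 in the knockout and 36.3 in the control (log2 ratio 0.91), the same direction within 2-fold. Ifngr1 (gene ID 15979), the chain that binds the ligand, had 86.3 in the knockout and 95.4 in the control (log2 ratio -0.14). So of the 2 chains of the gamma receptor, only Ifngr2 was past the limit, in 1 of its 2 probe sets.

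For the type I receptor, neither chain was past the limit. Ifnar1 (gene ID 15975) had 88.1 in the knockout and 70.8 in the control (log2 ratio 0.32). Ifnar2 (gene ID 15976) had 160.2 in the knockout and 163 in the control (log2 ratio -0.03), and its dimmer probe set, 1427691_a_at, had 14.2 in the knockout and 17.96 in the control, just over the floor (log2 ratio -0.34). The 4 receptor ratios had a median of 0.14, and the 5 factor ratios a median of 0.93.

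**Figure D2:**
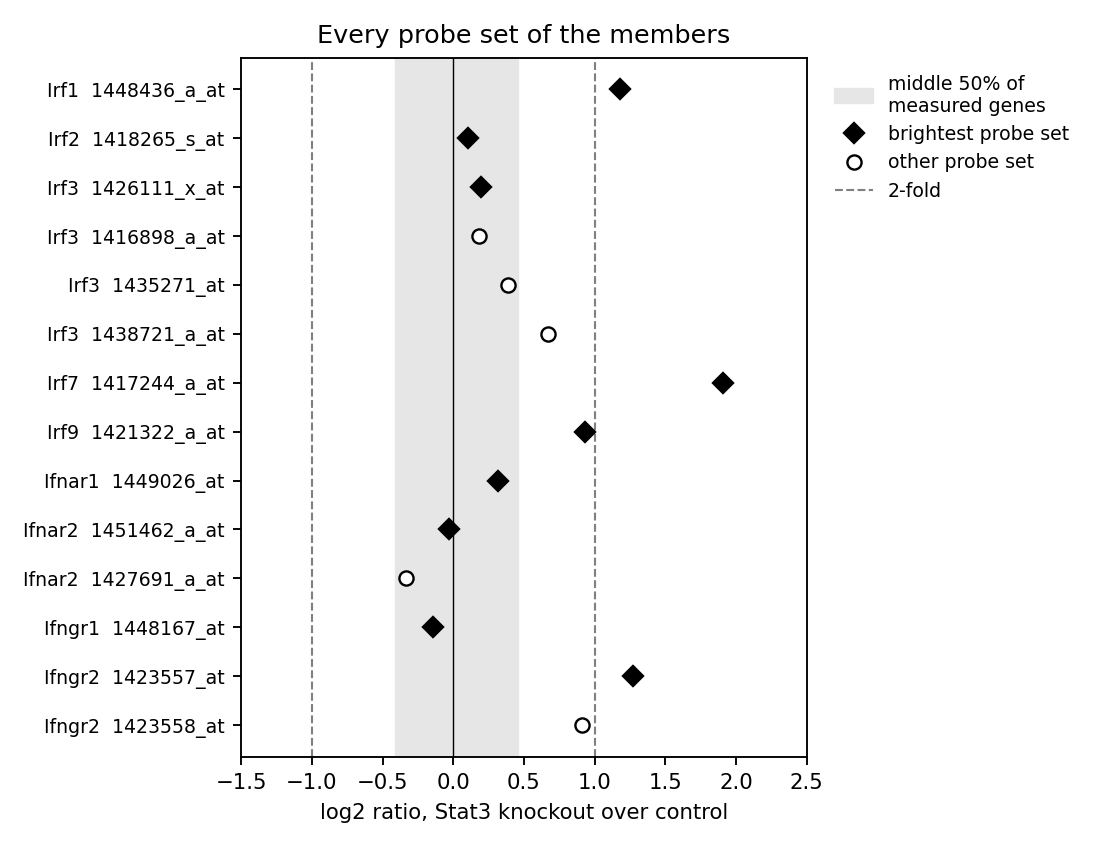
Log2 ratio, knockout over control, of all 14 probe sets of the 9 genes (horizontal axis), with the brightest probe set of each gene as a filled diamond and others as open circles. The grey band is the middle 50% of all measured genes (-0.40 to 0.46) and the dashed lines mark 2-fold; the points past 2-fold belong to Irf1, Irf7 and Ifngr2.

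Probe sets of 1 gene disagreed with an SD of 0.31 in their log2 ratios, over 2853 genes with at least 2 of them over the floor on both arrays. The ratios of Irf7, Ifngr2, Irf1 and Irf9 were each several times that spread, while those of Irf2, Irf3, Ifnar2 and Ifngr1 were smaller than it and that of Ifnar1 was about equal to it. This spread covers probe sets and neither animals nor arrays. All 14 probe sets were over the floor on both arrays, so none of the ratios is a bound. For 6 of the 9 genes the brightest probe set has a name ending in _a_at, _s_at or _x_at. Such names mark probe sets that can match more than 1 transcript, which may be transcripts of the same gene. Without them only Ifngr2 (1.27), Irf3 (0.39), Ifnar1 (0.32) and Ifngr1 (-0.14) remained. The count past 2-fold was then 1 of 4, higher, against 7.87% of all measured genes higher in that setting.

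**Figure D3:**
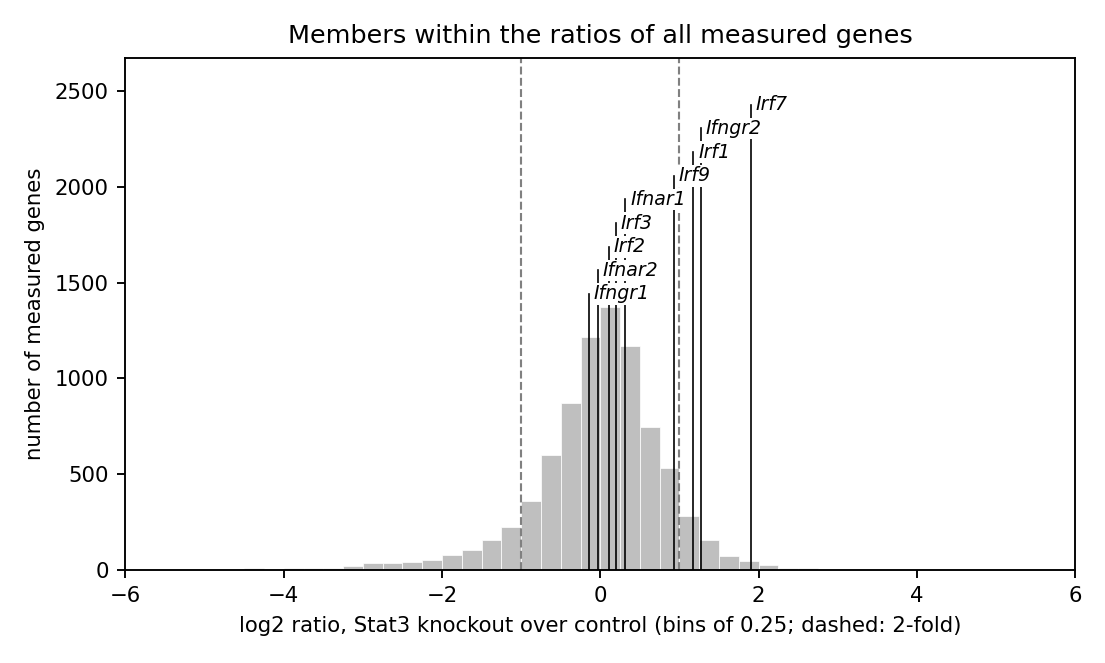
Number of measured genes (vertical axis) by log2 ratio, knockout over control (bars, bins of 0.25), with the ratio of each of the 9 genes as a black line; dashed lines mark 2-fold. Irf7, Ifngr2 and Irf1 lie to the right of the 2-fold line with 7.37% of all measured genes, Irf9 just inside it, and the other 5 in the bulk of the distribution.

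The ratios of the 9 genes were recomputed under other scalings between the arrays, other floors and other choices of probe set. Irf7 ranged from 1.74 to 1.97 on the log2 scale, Ifngr2 from 1.09 to 1.33 and Irf1 from 1.01 to 1.24, the lowest value of Irf7 and of Irf1 being that with the arrays scaled to the epithelial markers. Irf9 ranged from 0.76 to 0.99. The direction of Irf2 and of Ifnar2, whose ratios lie near 0, changed with the scaling. Ifngr1 was below 0 in each setting, from -0.31 to -0.08.

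**Figure D4:**
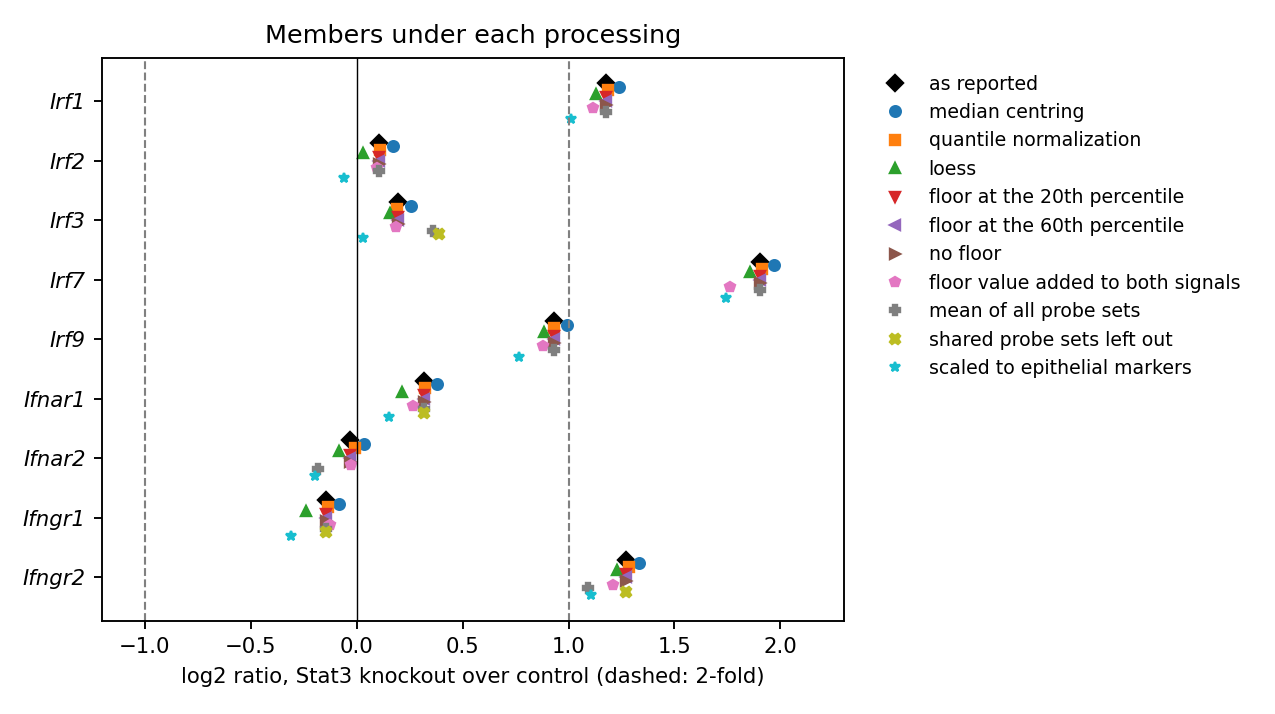
Log2 ratio, knockout over control (horizontal axis), of each of the 9 genes as reported (black diamonds) and under each alternative scaling, floor or choice of probe sets (other symbols, 1 per setting); dashed lines mark 2-fold. Irf7, Ifngr2 and Irf1 stay to the right of the 2-fold line in every setting drawn that measured them, the lowest values being 1.74, 1.09 and 1.01, and Irf9 stays to its left, with a highest value of 0.99.

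The promoters of the 9 genes were searched for the sites to which the pathway's own factors are known to bind, to set the letters beside the ratios. They are the 250 bases before the start, from RefSeq (GRCm38.p6), with all 9 genes matched and 11 promoters in all, as Irf1 and Irf9 have several starts. The letters searched were TTCNNNGAA, the gamma activated site bound by STAT dimers, which reads the same on both strands, and TTTC followed after 2 bases of any kind by TTTC, searched on both strands (GAAA, 2 bases, GAAA on the other), the core of the interferon stimulated response element bound by ISGF3 and IRFs. The first was found in 3 of the 11 promoters, those of Irf1 (at 1 of its starts), Irf2 and Ifnar2, against 7.02% of 32851 promoters of the same length. The second was found in 1 of the 11, that of Irf2, against 2.98% of those promoters. A further match of the first motif runs across the start of Ifnar1 and is not counted. Printed 5′ to 3′, with matches in capitals, are promoters of the 3 genes past 2-fold (for Irf1, the one of its 2 that holds a match; the other has 0 matches) and, for contrast, of Irf2, which was within 2-fold and holds both motifs:
Irf7, chr7:141266425-141266674, minus strand: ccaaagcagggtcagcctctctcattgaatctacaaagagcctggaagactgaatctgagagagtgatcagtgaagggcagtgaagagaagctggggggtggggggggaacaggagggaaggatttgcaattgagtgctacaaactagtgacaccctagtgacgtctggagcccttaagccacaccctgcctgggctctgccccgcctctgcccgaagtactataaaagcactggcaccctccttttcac
Ifngr2, chr16:91546809-91547058, plus strand: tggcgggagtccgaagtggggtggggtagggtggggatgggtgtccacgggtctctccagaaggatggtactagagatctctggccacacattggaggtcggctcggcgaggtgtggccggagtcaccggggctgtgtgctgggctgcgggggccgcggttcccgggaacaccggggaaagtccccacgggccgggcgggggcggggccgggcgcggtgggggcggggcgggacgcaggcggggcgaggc
Irf1, chr11:53769764-53770013, plus strand: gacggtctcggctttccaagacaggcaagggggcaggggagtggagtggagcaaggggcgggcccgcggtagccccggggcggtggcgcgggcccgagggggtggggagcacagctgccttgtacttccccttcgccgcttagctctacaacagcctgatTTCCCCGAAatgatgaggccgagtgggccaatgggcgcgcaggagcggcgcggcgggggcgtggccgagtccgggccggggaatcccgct
Irf2, chr8:46739495-46739744, plus strand: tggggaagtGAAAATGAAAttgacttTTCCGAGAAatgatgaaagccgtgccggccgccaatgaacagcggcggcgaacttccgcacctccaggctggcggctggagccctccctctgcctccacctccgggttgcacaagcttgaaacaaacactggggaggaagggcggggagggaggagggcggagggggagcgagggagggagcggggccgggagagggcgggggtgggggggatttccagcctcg
In Irf1 the match TTCCCCGAA begins 90 bases before the start. In Irf2 the match TTCCGAGAA begins 224 bases before the start and GAAAATGAAA 241 bases before it. In Ifnar2, whose signals were close on both arrays, the match TTCCTGGAA begins 214 bases before the start. Among the 3 genes past 2-fold, Irf1 holds a match and Irf7 and Ifngr2 hold none in this window. A match is a description of letters and not a bound site, and these arrays hold no measure of binding.

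The interferon genes with a probe set had no signal over the floor. Ifne, Ifnk, Ifna6, Ifna7 and Ifna12 had no probe set of a single gene and were not measured. Of 15 listed genes of type I and type II interferons, 10 had a probe set, and all 10 were under the floor of 14.0 on both arrays; the highest signals were 8.77 in the knockout, for Ifnz, and 11.5 in the control, for Ifnab. Ifng had 3.15 in the knockout and 0.30 in the control, and Ifnb1 had 1.40 in the knockout and 2.87 in the control, values that have no order at this level. The ligands could therefore not be compared.

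Of the kinases and STATs that the receptors use, all 4 measured genes had ratios above 0, against 53.4% of all measured genes. Stat2, the partner of IRF9 in ISGF3, had a signal of 56.1 in the knockout and 18.5 in the control, or 3.03-fold higher (log2 ratio 1.60), and its other probe set had 57.2 in the knockout and 18.1 in the control (log2 ratio 1.66). The receptor kinase genes were within 2-fold. Tyk2 had 140 in the knockout and 86.3 in the control (log2 ratio 0.70). Jak1 had 435 in the knockout and 308 in the control (log2 ratio 0.50), and Jak2 had 1936 in the knockout and 1285 in the control (log2 ratio 0.59).

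The interferon regulatory factors best known from leukocytes had low signals. Irf8 had 16.9 in the knockout and 15.4 in the control (log2 ratio 0.14). Irf5 had 30.2 in the knockout and 15.4 in the control (log2 ratio 0.97), and its second probe set read 14.8 in the knockout and was below the floor in the control. Irf4 was under the floor on both arrays. Il10rb, a chain shared by the receptors of interleukin 10 and lambda interferons, had 93.6 in the knockout and 127 in the control (log2 ratio -0.44).

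Upstream of IRF3 and IRF7, 12 sensors and adaptors were measured, and their median log2 ratio was 0.48. Of these, 2 were higher past the 2-fold limit and 1 was lower past it, against 7.37% and 9.92% of all measured genes. Zbp1, a sensor of Z-form nucleic acid, was 3.15-fold higher (131 in the knockout, 41.6 in the control), and Ifih1, which encodes the double-stranded RNA sensor MDA5, lay at the limit with 2.00-fold (234 in the knockout, 117 in the control). Sting1, the adaptor that carries the DNA-sensing signal to IRF3, was 11.3-fold lower, with 32.6 in the knockout and 368 in the control on its only probe set. The bright adaptor gene Myd88 had 2958 in the knockout and 2281 in the control, and Irak1 had 361 in the knockout and 386 in the control. The list thus holds differences of both signs.

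Of 9 measured brakes on interferon signalling, Usp18 and Cish were past the 2-fold limit, both higher, and 0 were lower past it. Over all measured genes, 7.37% were higher by this limit and 9.92% lower. The median log2 ratio of the brakes was 0.14. Usp18, a protease that binds IFNAR2 and removes ISG15 from proteins, was 3.79-fold higher (222 in the knockout, 58.5 in the control). Cish, a SOCS family inhibitor, was 2.05-fold higher (127 in the knockout, 62.3 in the control). The phosphatase gene Ptpn2 had 564 in the knockout and 639.9 in the control, and Ptpn11 had 399.6 in the knockout and 425 in the control. Socs3, another SOCS family inhibitor, named after its value was seen, lay just inside the limit on the other side, 1.98-fold lower with 92.8 in the knockout and 184 in the control, and the count lower in this list was 1 with loess, without shared probe sets and at 1.5-fold.

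Target genes of the pathway were taken as a list for type I interferon and a list for interferon gamma and IRF1, although many of these genes answer to both. In the first, 5 of 17 measured genes were higher past the 2-fold limit and 0 lower, and the median log2 ratio was 0.47. Oasl2 was 9.67-fold higher (481 in the knockout, 49.8 in the control), Ifit3 5.27-fold (86.0 in the knockout, 16.3 in the control), Rsad2 4.34-fold (71.6 in the knockout, 16.5 in the control) and Ifit1 4.12-fold (470 in the knockout, 114 in the control). Ifitm3 and Rtp4, bright genes of the same list, had 4032 in the knockout against 3879 in the control, and 802 in the knockout against 516 in the control.

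In the list for interferon gamma and IRF1, 15 of 19 measured genes were higher past the 2-fold limit and 0 lower, and the median was 1.67. Without probe sets shared between transcripts the count higher was 10 for this list and 3 for the type I list. With the floor at the 60th percentile it was 12 for this list and 2 for the type I list. Each of these settings left some genes of both lists without a ratio, so these counts are out of fewer genes. The shares of all measured genes higher were 7.87% without shared probe sets and 5.61% with the floor at the 60th percentile. Iigp1 was 46.2-fold higher (1099 in the knockout, 23.8 in the control) and Gbp2 6.87-fold (323 in the knockout, 47.1 in the control). Tap1, the peptide transporter gene and a known IRF1 target, was 6.61-fold higher (457 in the knockout, 69.2 in the control). The other Tap1 probe sets were all under the floor on both arrays. Cd274 was at least 8.43-fold higher, with 118 in the knockout and a control signal under the floor. Psme1 and Casp1 were within 2-fold, Psme1 with 1190 in the knockout and 1042 in the control and Casp1 with 479 in the knockout and 293 in the control. Of all measured genes, 7.37% were at least 2-fold higher. Both lists were chosen with earlier results of these data known, so this share only describes and is no test of the counts. The difference between the lists was not tested.

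**Figure D5:**
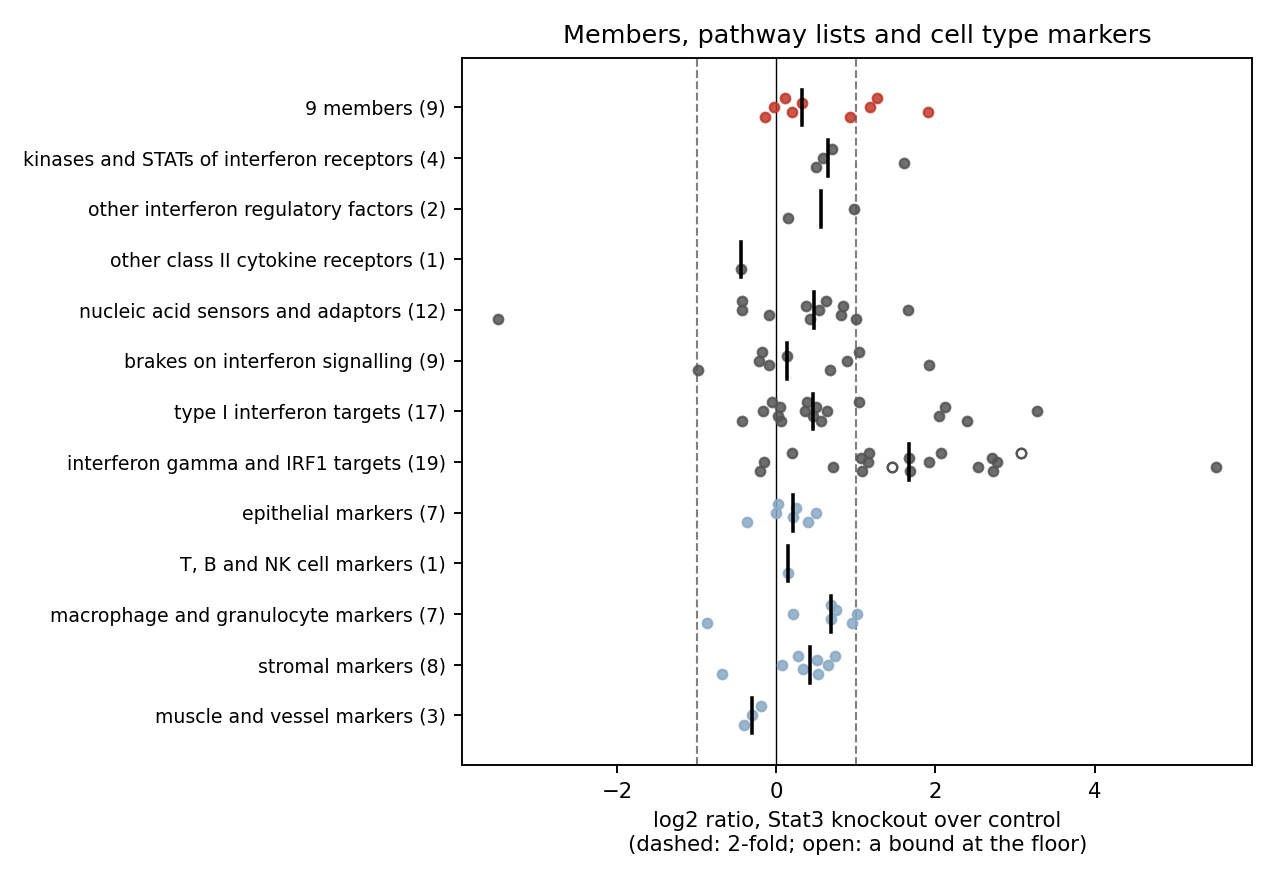
Log2 ratio, knockout over control (horizontal axis), of each measured gene of the 9 described here, of the pathway lists and of cell type markers, with the number of measured genes in brackets; vertical bars are medians, open points are bounds and dashed lines mark 2-fold. The list for interferon gamma and IRF1 has the highest median (1.67) of the lists drawn, the 9 genes have 0.32, and Sting1 is the point at -3.50.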

How the data were processed

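Per the submitters' processing notes, MAS5 and Affymetrix Expression Console 1.1 were used. For each array the authors deposited an intensity per probe set, on a linear scale and already scaled between arrays. The sources used here give no hybridisation batches. One protocol label speaks of human stromal cells, where all others give mouse epithelium. Of 22626 probe sets that are not controls, the platform annotation, possibly outdated, gives 20380 a single gene, 691 several and 1555 no gene; gene IDs were looked up in a RefSeq table for current symbols (99.9% matched). Each gene was read by its brightest probe set. Signals under the 40th percentile (14.0) were set to it, and 4089 genes below it in both groups got no ratio. Log2 ratios were counted at 2-fold, with no pseudocount, test or error of a group. The code was tested on simulated data. The genes and lists were chosen with earlier results of these data known. All list members are counted; per list the text names the 4 largest ratios past 2-fold and the 2 brightest other genes, or all in lists of up to 5; marker genes are named as examples. Chromosomal neighbours and the scaling to epithelial markers were added after the values were seen. Computation used Python 3.11.15, numpy 2.4.6, pandas 2.3.3 and statsmodels 0.14.6.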

Additional observations from a re-analysis of the deposited data

How the results depend on the processing

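Single choices were varied in turn: how the arrays were scaled (median centring, quantile normalization, loess), the floor, the choice of probe sets and the fold limit, with a scaling to 7 epithelial markers chosen after seeing the data. The count of the 9 genes at least 2-fold higher stayed at 3, and those were Irf1, Irf7 and Ifngr2, under all of them except 3. It was 4 at 1.5-fold (with Irf9, where 19.4% of all measured genes were higher) and 1 at 3-fold (Irf7, against 1.72%). Without probe sets shared between transcripts it was 1 of 4 (Ifngr2, against 7.87%). The count at least 2-fold lower was 0 under each. The ratio ranged over the alternatives from 1.74 to 1.97 for Irf7, from 1.09 to 1.33 for Ifngr2, from 1.01 to 1.24 for Irf1 and from 0.76 to 0.99 for Irf9. Irf2 (-0.06) was under 0 with the epithelial scaling and Ifnar2 (0.03) above 0 with median centring. The epithelial scaling moved the median of all genes to -0.11 (0.05 as reported), and the shares of all genes higher and lower to 5.13% and 12.5% (7.37% and 9.92% as reported). Of 64 measured genes in the pathway lists together, 25 were higher past 2-fold and 1 was lower. The number measured changed with the floor and the choice of probe sets. With no floor these counts were 39 and 6, as genes with very low signals then enter, and the shares of all genes were then 15.5% and 14.3%. The higher count was 17 with the floor at the 60th percentile (5.61% of all genes) and 18 without shared probe sets (7.87%). The lower count was 2 with loess (11.1% of all genes), with the floor at the 20th percentile (10.2%), at 1.5-fold (18.6%) and without shared probe sets (9.74%). Of 14 pathway genes named as past 2-fold, Cish and Ifih1 came within it under loess and with the floor value added, and Cish, Cd274, Ifit3 and Rsad2 with the floor at the 60th percentile, which raises the control value; Stat2 got no ratio there, so the count higher among kinases and STATs was 0 (1 as reported). Over the alternatives Sting1 ranged from -3.58 to -2.52 and Iigp1 from 4.10 to 5.59. No paired analysis was possible because each group has 1 array. No array could be left out for the same reason.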

Other observations

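The signals of the genes next to these 9 on their chromosomes are given as a description. On chromosome 16 the receptor genes Ifnar2, Il10rb, Ifnar1 and Ifngr2 lie next to each other in that order in the RefSeq gene table, followed by Tmem50b. Along this row the log2 ratios, knockout over control, were -0.03, -0.44, 0.32, 1.27 and 0.75. Tmem50b, which encodes a membrane protein, had signals of 1031 in the knockout and 611 in the control, and the next gene, Dnajc28, had 21.1 in the knockout and 18.7 in the control. Ifngr2 was the only gene of this row past 2-fold. The transcription factor genes Olig1 and Olig2, on the other side of Ifnar2, were under the floor on both arrays.

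Beside Irf9 on chromosome 14, Rec8, which encodes a cohesin subunit of meiosis, had 136 in the knockout and 34.4 in the control, or 3.95-fold higher, and Ipo4, the gene after it, had 160.3 in the knockout and 197 in the control. Beside Irf1 on chromosome 11, the carnitine transporter gene Slc22a5 had 195 in the knockout and 229 in the control, and the cytokine gene Il5 was under the floor on both arrays. Of 15 nearest protein-coding neighbours that are not among the 9 genes, 4 were measured, and Rec8 was the only one of them past 2-fold. Of 14 further second neighbours, 6 were measured, and 1 of them was past 2-fold: Prmt1, which encodes an arginine methyltransferase and lies near Irf3, was 2.07-fold lower, with 509 in the knockout and 1055 in the control. Over all measured genes, 7.37% were higher by this limit and 9.92% lower. The neighbour counts come from few genes, so they only describe and are no test.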
